A study of Mus musculus with 12 samples.

Results

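The cell-type-specific part of the Blimp1 response is the set of genes whose genotype difference, Blimp1 CKO minus Ctrl, was not the same in regulatory T cells (pTreg) as in effector T cells (Teff). It was measured for each gene as an interaction, the genotype difference in pTreg minus that in Teff, on the log2 scale. All 12 arrays of the series entered, 3 for each of 4 groups, and 12119 of the 17759 genes with a single symbol on the array could be tested because a probe lay above the array median on at least 3 arrays. A negative interaction means that the genotype difference was lower in pTreg than in Teff, and a positive one that it was higher.

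The 4 groups were pTreg from Blimp1 CKO donors, pTreg from Ctrl donors, Teff from Blimp1 CKO donors and Teff from Ctrl donors, all C57BL/6 mice 8 to 12 weeks old. Naive CD4+CD44low cells of both genotypes carried a Foxp3GFP reporter and an allotype marker, were mixed 1:1 and were put into RAG1-/- hosts, which lack mature lymphocytes of the T and B lineages but keep their myeloid and NK cells. After 6 to 8 weeks the Foxp3+ (pTreg) and Foxp3- (Teff) CD4+ progeny of each donor were sorted from pooled spleen, mesenteric nodes and lamina propria of the large intestine. All groups were then stimulated for 4 h with PMA and ionomycin, which switch on cytokine transcription. The sources used here name no Cre line or promoter for the deletion. Whether each replicate is a separate animal or culture is not stated in the labels, and a p-value here therefore reflects only how much these samples varied. In sorted bulk cells a lower share of cells that express a gene and less RNA per cell cannot be told apart.

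Blimp1, the product of Prdm1, is a zinc finger repressor that shapes the effector state of B and T lymphocytes. In regulatory T cells it is known for its part in the effector program and in production of the cytokine IL-10, and in conventional T cells for limiting expansion and opposing Bcl6, a repressor needed by follicular helper T cells. Regulatory T cells and conventional effector cells share most of their transcripts but differ in Foxp3 and a signature of surface receptors around it.

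The arrays had medians from 4.66 to 4.68 and correlated with each other at 0.943 to 0.988. Foxp3 marked the sort, at 8.05 ± 0.67 in CKO pTreg and 8.02 ± 0.84 in Ctrl pTreg, against 4.64 ± 0.19 in CKO Teff and 4.58 ± 0.16 in Ctrl Teff (SD, n = 3). Prdm1 itself was higher in the arrays labelled CKO, by 3.27 in pTreg (limma adjusted p = 0.00953) and 3.34 in Teff (adjusted p = 0.0235). The sources used here do not place its probe inside or outside the deleted part, so it does not check the labels, and every direction below is that of arrays labelled CKO against arrays labelled Ctrl. Of the marker lists of other cells, those of basophils and mast cells and of CD8 and NK cells were far higher in the CKO Teff arrays 1 and 2 than on any pTreg array, and results that rest on these arrays are given with and without them.

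Few genes passed a test of the interaction. With 1 mean per group, Ky and Gpr83 were called lower (0.0165% of the genes tested) and none higher (0%), at a limma adjusted p under 0.05. At an unadjusted p under 0.05 there were 422 genes (3.48%), 197 with a positive and 225 with a negative interaction. Same-numbered CKO and Ctrl arrays of a cell type deviated together, so the fit was repeated with these 6 pairs as a term. The paired fit called Ky, Ncmap, Il10 and Ecm1 lower (0.033%) and Pdlim1 higher (0.00825%), and 1382 genes had an unadjusted p under 0.05 (11.4%). Only Ky was called by both fits, and 6 genes by either.

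The calls were sensitive to single arrays. Without pairs, 9 of the 12 limma fits that leave out 1 array called 0 genes, with 263 to 819 at an unadjusted p under 0.05 over these fits and those that leave out a pair, and 22 were called without CKO Teff array 3. With pairs, the count was 0 without pTreg pair 1 or Teff pair 1 and 119 without Teff pair 3. The interactions of the 6 genes called by either fit kept their sign over the alternatives, but their size moved. Ecm1 ran from −2.37 to −1.25 and Pdlim1 from 1.24 to 2.04. The ranges of Ky, Gpr83, Ncmap and Il10 are given with each gene.

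**Figure D1:**
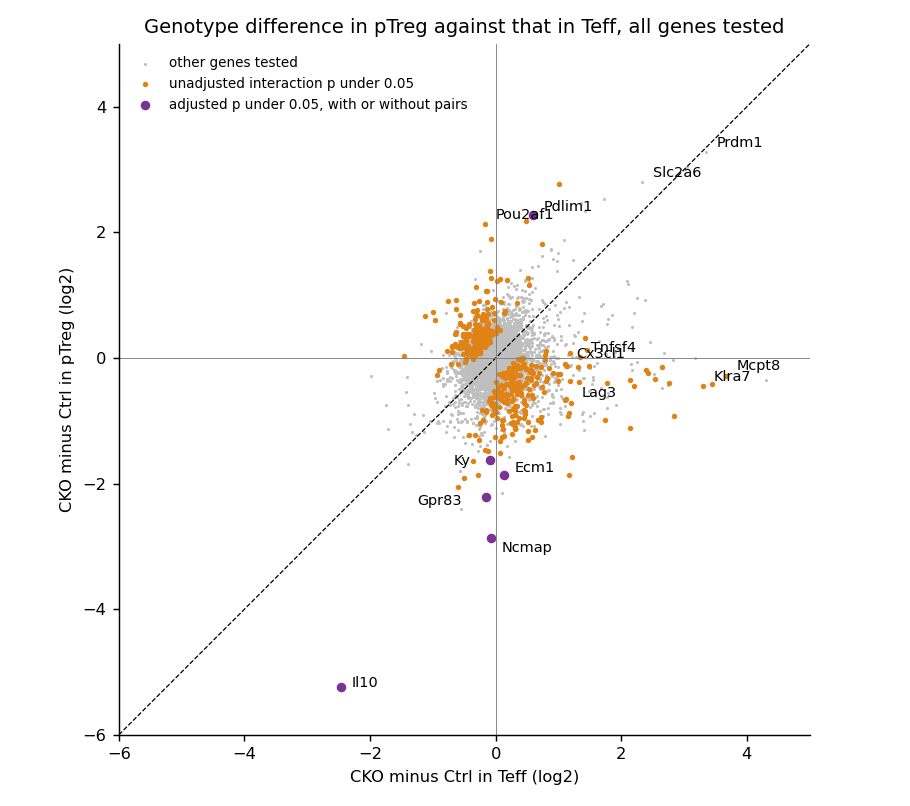
Genotype difference (CKO minus Ctrl, log2) in pTreg on the vertical axis against that in Teff on the horizontal axis for the 12119 genes tested, with equal differences on the dashed line. Purple points are the 6 genes called with or without pairs and orange points the genes at an unadjusted interaction p under 0.05. Prdm1 and Slc2a6 lie near the dashed line, while Ky, Gpr83, Ncmap and Ecm1 lie below it near a Teff difference of 0.

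The genotype differences of the 2 cell types were weakly correlated over all genes. Their Pearson correlation across genes was 0.119, a description over 12119 genes that are not independent, and the SD over genes was 0.301 in pTreg and 0.294 in Teff. The median SE of the interaction was 0.267, so error makes up much of this spread and lowers the correlation. The low correlation therefore does not show that the responses of the 2 cell types differ. The 2 differences had opposite signs in 48.9% of all genes, about what error alone gives. Among genes at an unadjusted p under 0.05 that share was 87.8% for positive and 83.6% for negative interactions, which the choice of large differences between the cell types itself raises. The 3 pair differences of pTreg all lay above the 3 of Teff in 1044 genes (8.61%) and all below them in 859 (7.09%).

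The clearest group of genes was low in Teff of either genotype, present in Ctrl pTreg and lower in CKO pTreg. It held Gpr83 and Izumo1r (folate receptor 4), cell surface proteins of the regulatory T cell signature, Ky, a protein known from muscle, Ncmap, a membrane protein known from myelinating Schwann cells, and Trp53i11, a p53-inducible gene. These genes passed the threshold for the genotype difference within pTreg, where 12 genes did in all (0.099%). None of them passed it in Teff, where 2 genes did (0.0165%). With pairs 264 genes passed in pTreg (2.18%) and 12 in Teff (0.099%), again with none of these 5 in Teff.

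Ky, Gpr83 and Izumo1r lie on chromosome 9, and Gpr83 and Izumo1r are neighbours there, with 15024 bases between their annotated spans, no annotated gene between them and start sites 43.6 kb apart. This neighbourhood was seen after their values were. Ncmap and Trp53i11, of the same group of genes, are not shown here. In CKO cells Ky in pTreg was at the Teff level, while Gpr83 and Izumo1r in pTreg stayed above it. The 250 bases before each start are shown for Ky, Gpr83 and Izumo1r only. They are RefSeq promoters of GRCm38.p6, at chr9:14859960-14860209 on the plus strand for Gpr83, chr9:14903768-14904017 on the minus strand for Izumo1r and chr9:102505888-102506137 on the plus strand for Ky, each written along its gene's strand. Capitals mark GAAAG, the core of the sequence that Blimp1 is known to bind, or its reverse complement CTTTC.
Gpr83: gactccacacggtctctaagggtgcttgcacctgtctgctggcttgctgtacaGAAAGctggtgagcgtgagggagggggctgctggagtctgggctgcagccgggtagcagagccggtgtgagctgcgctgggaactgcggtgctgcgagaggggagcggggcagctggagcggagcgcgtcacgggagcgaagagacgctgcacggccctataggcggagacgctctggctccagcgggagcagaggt
Izumo1r: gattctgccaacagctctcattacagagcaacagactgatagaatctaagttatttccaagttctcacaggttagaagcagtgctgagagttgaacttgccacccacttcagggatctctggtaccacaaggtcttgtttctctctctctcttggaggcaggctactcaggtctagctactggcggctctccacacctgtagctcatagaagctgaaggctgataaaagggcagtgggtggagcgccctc
Ky: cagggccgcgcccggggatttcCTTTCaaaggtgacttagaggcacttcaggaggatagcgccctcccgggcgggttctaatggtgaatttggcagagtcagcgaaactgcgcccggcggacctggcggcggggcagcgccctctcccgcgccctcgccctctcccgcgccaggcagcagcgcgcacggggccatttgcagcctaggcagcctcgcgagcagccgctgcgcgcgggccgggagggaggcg
The Gpr83 window held GAAAG once, the Ky window held CTTTC once and the Izumo1r window held neither. Of 32851 promoter windows of this length, 51.5% held the motif on one strand or the other, so a match is a description of the letters only.

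Gpr83, a receptor coupled to G proteins, had log2 values of 4.96, 5.03 and 5.57 in CKO pTreg, against 7.43, 7.59 and 7.20 in Ctrl pTreg. In Teff it was at 4.41, 4.59 and 4.72 in CKO and 4.72, 4.81 and 4.65 in Ctrl. Ctrl pTreg stood above every other array, CKO pTreg was next, and the Teff values of both genotypes overlapped near the array median. The genotype difference was −2.22 in pTreg (4.66-fold lower in CKO) and −0.15 in Teff, an interaction of −2.07 ± 0.24 (SE, limma adjusted p = 0.0308). With pairs the adjusted p was 0.0556. The interaction lay between −2.36 and −1.90 under 31 alternatives, and 13 of them kept the call, 3 of them among the 12 fits that leave out 1 array.

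Ky had log2 values of 4.52, 4.25 and 4.33 in CKO pTreg, against 6.10, 6.07 and 5.81 in Ctrl pTreg. In Teff it was at 4.45, 4.32 and 4.41 in CKO and 4.62, 4.45 and 4.38 in Ctrl. It was above the array median only in Ctrl pTreg, and the other 3 groups overlapped below it. It thus passed the filter only through the group where it was high, and a lower value in the others could hardly be seen. With no filter the limma adjusted p was 0.0263. The genotype difference was −1.63 in pTreg and −0.09 in Teff, an interaction of −1.53 ± 0.17 (limma adjusted p = 0.0308, and 0.0259 with pairs). A second probe gave −1.31 ± 0.16 (adjusted p = 0.0361 among all probes). The value lay between −1.66 and −1.42 under 30 alternatives, 13 of which kept the call, 2 of them among the 12 fits that leave out 1 array.

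Ncmap had log2 values of 5.56, 4.86 and 4.94 in CKO pTreg, against 8.74, 7.87 and 7.35 in Ctrl pTreg. In Teff it was at 4.52, 4.67 and 4.45 in CKO and 4.46, 4.75 and 4.64 in Ctrl. No CKO pTreg array reached a Ctrl pTreg array, and the Teff groups overlapped. The genotype difference was −2.86 in pTreg (7.28-fold lower in CKO) and −0.07 in Teff. The interaction was −2.79 ± 0.43 without pairs (limma adjusted p = 0.150) and was called with pairs (SE 0.22, adjusted p = 0.00776). It lay between −3.11 and −2.42 under 31 alternatives, of which 6 called it. Among these, unpaired fits with trend and robust settings (limma adjusted p = 0.0372) and with the array set as a term (0.0396) called it.

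Izumo1r had log2 values of 4.84, 4.80 and 4.98 in CKO pTreg, against 6.27, 6.70 and 6.08 in Ctrl pTreg, and group means of 4.49 in CKO Teff and 4.60 in Ctrl Teff. Its order of groups was that of Gpr83. The interaction of −1.36 ± 0.21 did not pass without pairs (limma adjusted p = 0.150) or with them as a fixed term (0.0972), and passed with them as a random block (0.0312). Its 2 dimmer probes gave −0.36 and −0.07. With the mean of its probes the interaction was −0.60. Trp53i11 averaged 4.87 in CKO pTreg and 5.83 in Ctrl pTreg, with 4.95 in CKO Teff and 4.93 in Ctrl Teff. Its interaction was −0.97 ± 0.20 (adjusted p = 0.739), and a dimmer probe gave −0.15.

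For these 5 genes both genotypes lay near the array median in Teff, so a lower value in CKO Teff could not have been measured well. In Ctrl cells pTreg exceeded Teff by 2.68 for Gpr83, 1.51 for Ky, 3.37 for Ncmap, 1.75 for Izumo1r and 0.90 for Trp53i11. In CKO cells pTreg exceeded Teff by 0.61, 0.57 and 0.39 for Gpr83, Ncmap and Izumo1r, with −0.03 for Ky and −0.07 for Trp53i11. These cell type differences share arrays with the interaction, which is the difference between them.

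**Figure D2:**
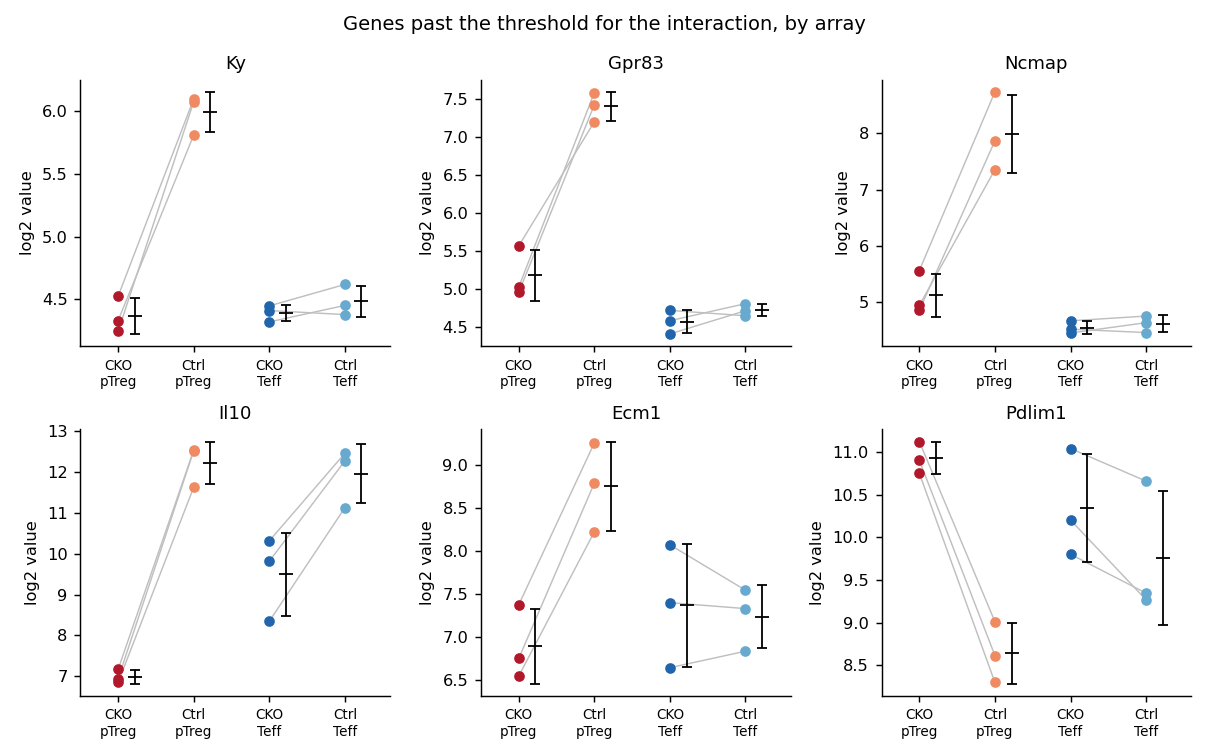
Log2 values by array of the 6 genes called for the interaction with or without pairs, in CKO pTreg, Ctrl pTreg, CKO Teff and Ctrl Teff from left to right. Points are arrays, grey lines join same-numbered arrays, and black bars are the mean ± SD of 3 arrays. Ky, Gpr83 and Ncmap stand high only in Ctrl pTreg, while Il10 is lower in CKO in both cell types and further down in pTreg.

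The secreted proteins among the called genes were present in both cell types. Il10, the cytokine of regulatory T cells that restrains inflammation in the gut, had log2 values of 7.17, 6.85 and 6.94 in CKO pTreg, against 12.53, 11.62 and 12.52 in Ctrl pTreg. In Teff it had 10.31, 9.81 and 8.35 in CKO, against 12.46, 12.27 and 11.12 in Ctrl. CKO lay below Ctrl in both cell types without overlap, Ctrl pTreg and Ctrl Teff overlapped, and CKO pTreg lay under every CKO Teff array.

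The Il10 difference was −5.24 in pTreg (37.8-fold lower in CKO, limma adjusted p = 0.00241) and −2.46 in Teff (5.50-fold lower in CKO, adjusted p = 0.676). With pairs the difference also passed in Teff (limma adjusted p = 0.00307). By pair it was −5.36, −4.78 and −5.58 in pTreg and −2.14, −2.46 and −2.78 in Teff. The interaction of −2.78 was called with pairs (SE 0.25, adjusted p = 0.0124) and not without them (SE 0.70, adjusted p = 1.00), although the unpaired fit called it without Teff pair 3 (adjusted p = 0.0494). It stayed between −3.35 and −2.37 in all 31 alternatives.

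Ecm1, an extracellular matrix protein that T helper cells secrete, had log2 values of 6.75, 7.37 and 6.54 in CKO pTreg, against 8.79, 9.26 and 8.22 in Ctrl pTreg. In Teff it had 8.07, 7.40 and 6.64 in CKO, against 7.54, 7.33 and 6.83 in Ctrl. The genotypes were apart in pTreg, where the difference of −1.87 passed with pairs (limma adjusted p = 0.00118) and not without them (0.165), and overlapped in Teff. The interaction of −2.00 was called with pairs (SE 0.21, limma adjusted p = 0.0259) and not without them (SE 0.54, adjusted p = 1.00). A dimmer Ecm1 probe gave −0.50 ± 0.23, and the mean of both probes −1.25.

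Pdlim1, a PDZ and LIM domain adaptor of the cytoskeleton, had log2 values of 10.90, 11.12 and 10.75 in CKO pTreg, against 8.61, 9.01 and 8.30 in Ctrl pTreg. In Teff it had 9.80, 11.04 and 10.20 in CKO, against 9.34, 10.66 and 9.27 in Ctrl. CKO exceeded Ctrl in 6 of 6 pairs, by 2.11 to 2.45 in pTreg and 0.38 to 0.94 in Teff. The interaction of 1.69 was called with pairs (SE 0.20, limma adjusted p = 0.0384) and not without them (SE 0.56, adjusted p = 1.00).

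A set of genes with higher values in CKO pTreg had differences in Teff that did not pass with or without pairs, and neither of these fits called any of them for the interaction. Hif1a, a transcription factor of the low-oxygen response that also favours Th17 cells and glycolysis, had log2 values of 8.52, 8.33 and 8.37 in CKO pTreg, against 7.41, 6.83 and 7.31 in Ctrl pTreg. In Teff it had 7.95, 7.63 and 7.59 in CKO, against 7.70, 7.68 and 7.72 in Ctrl. Every CKO pTreg array stood above all other arrays and every Ctrl pTreg array below them. It rose in CKO pTreg by 1.23 (limma adjusted p = 0.0164), with 0.02 in Teff and an interaction of 1.20 ± 0.22 (adjusted p = 0.519, 0.0972 with pairs, and 0.0495 with pairs as a random block).

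The other genes of this kind were transcriptional regulators and cytokines. Pou2af1, a coactivator known from B cells and follicular helper cells, had an interaction of 2.31 ± 0.73 (limma adjusted p = 1.00), the highest over all genes tested. It had log2 values of 9.15, 7.93 and 8.63 in CKO pTreg, 6.16, 6.54 and 6.61 in Ctrl pTreg, 9.02, 7.19 and 9.16 in CKO Teff, and 9.12, 7.94 and 8.85 in Ctrl Teff. Ctrl pTreg alone was low, and the pTreg difference of 2.13 passed with pairs (limma adjusted p = 0.0115) and not without them (0.280). Stat4, the signal transducer of IL-12, averaged 10.19 ± 0.33 in CKO pTreg and 8.96 ± 0.22 in Ctrl pTreg, against 10.99 ± 0.40 in CKO Teff and 10.82 ± 0.59 in Ctrl Teff, an interaction of 1.06 ± 0.43. Its pTreg difference of 1.23 passed with pairs (limma adjusted p = 0.0130) and not without them (0.290).

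The Th17 cytokines Il17a and Il17f and the cytokine Lta (lymphotoxin alpha) had positive interactions of 1.66 ± 0.52, 1.97 ± 0.69 and 1.35 ± 0.46. The pTreg differences of Il17a (0.90) and Il17f (1.89) passed neither without pairs (limma adjusted p = 0.85 and 0.33) nor with them (0.15 and 0.0619). That of Lta (1.28) passed with pairs (0.0170) and not without them (0.326). Il17f had 10.82, 9.84 and 9.16 in CKO pTreg, against 7.68, 8.12 and 8.34 in Ctrl pTreg, and 12.51, 12.32 and 12.26 in CKO Teff, against 13.35, 12.61 and 11.36 in Ctrl Teff. The genotypes were apart in pTreg and overlapped in Teff, and all pTreg arrays lay below all Teff arrays. Il17a averaged 8.72 ± 0.18 in CKO pTreg and 7.82 ± 0.92 in Ctrl pTreg, against 10.69 ± 0.11 in CKO Teff and 11.45 ± 0.35 in Ctrl Teff, so its sign differed between the cell types. Without Teff pairs 1 and 2 the Il17f interaction was 1.00, with 1.55 for Il17a and 1.45 for Lta.

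**Figure D3:**
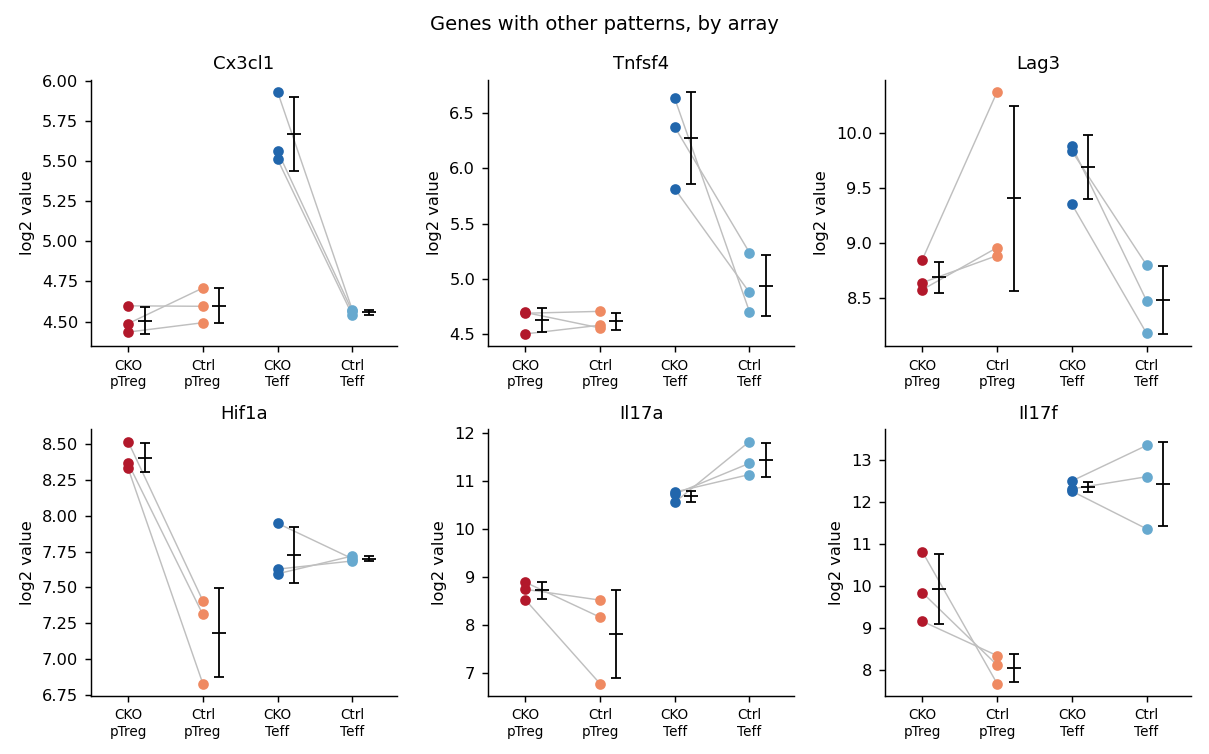
Log2 values by array of genes with other patterns across CKO pTreg, Ctrl pTreg, CKO Teff and Ctrl Teff, drawn as points with the mean ± SD of 3 arrays and grey lines between same-numbered arrays. Cx3cl1 and Tnfsf4 are high only in CKO Teff, Lag3 is lower in CKO than Ctrl in pTreg and higher in Teff, and Hif1a is lowest in Ctrl pTreg.

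The reverse pattern, a genotype difference seen in Teff and not in pTreg, is shown here for 2 ligands. They are not the only genes that passed in Teff alone. Cd74, of the MHC class II and dendritic cell markers, passed with pairs in Teff (1.85, limma adjusted p = 0.00821) and not in pTreg (0.68, 0.0937). Cx3cl1 (fractalkine), a membrane-bound chemokine, had log2 values of 4.43, 4.49 and 4.60 in CKO pTreg and 4.49, 4.71 and 4.60 in Ctrl pTreg. In Teff it had 5.56, 5.93 and 5.51 in CKO, against 4.56, 4.57 and 4.54 in Ctrl. CKO Teff stood above the other 3 groups, which overlapped near the array median. It rose in CKO Teff by 1.11 (limma adjusted p = 0.0235), with −0.09 in pTreg and an interaction of −1.20 ± 0.18 (adjusted p = 0.150, and 0.0638 with pairs). The interaction was called with pairs as a random block (limma adjusted p = 0.0126) and with trend and robust settings (0.0372).

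Tnfsf4 (OX40 ligand), a costimulatory ligand, had log2 values of 4.69, 4.69 and 4.50 in CKO pTreg, 4.55, 4.70 and 4.58 in Ctrl pTreg, 6.38, 6.64 and 5.82 in CKO Teff, and 5.24, 4.70 and 4.87 in Ctrl Teff. CKO Teff again stood alone. Its Teff difference of 1.34 passed with pairs (limma adjusted p = 0.0497) and not without them (0.144), and its interaction was −1.32 ± 0.29 (adjusted p = 0.919, and 0.133 with pairs). Both ligands had smaller interactions without Teff pairs 1 and 2, at −1.06 for Cx3cl1 and −0.93 for Tnfsf4. The part of other cells in these values was not tested.

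Some genes had differences of opposite sign in the 2 cell types. Lag3, an inhibitory receptor that binds MHC class II, had pair differences of −0.25, −0.38 and −1.52 in pTreg and 1.40, 1.17 and 1.03 in Teff, an interaction of −1.92 ± 0.49 (limma adjusted p = 1.00). All 3 pTreg pairs lay below 0 and all 3 Teff pairs above it. Hexa, a lysosomal hexosaminidase, had −0.77 in pTreg and 0.34 in Teff, Ppm1l, a protein phosphatase, −0.85 and 0.47, and Csrp2, a LIM domain protein, −1.02 and 0.27. The Teff pairs of Csrp2 were 0.99, 0.15 and −0.33, so its sign was not opposite in Teff pair 3, and its interaction of −1.29 ± 0.32 was −0.68 without Teff pairs 1 and 2. With the sign the other way, Mast4, a kinase, had 0.74 in pTreg and −0.99 in Teff, and Pdzk1, a scaffold protein, 0.92 and −0.64. The interaction was −1.11 ± 0.27 for Hexa, −1.32 ± 0.32 for Ppm1l, 1.73 ± 0.43 for Mast4 and 1.55 ± 0.42 for Pdzk1. None of the genes in this paragraph was called for the interaction with or without pairs, and none of their Teff differences passed in either fit. Choosing genes by a large interaction itself favours opposite signs.

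Of the 10 genes named in each direction by the smallest p, the pTreg difference was the larger in size for 8 of the 10 with a negative interaction and for 6 of the 10 with a positive one. Over all genes tested it was the larger in 27% with the same sign in both cell types and in a further 25.1% with opposite signs. The counts of 8 and 6 are thus a description of few genes, and do not show a response that lies mainly in pTreg. Others of the positive group were Cep85, a centrosome protein (0.87 ± 0.18), Cdon, a cell surface co-receptor of hedgehog signalling (1.44 ± 0.31), Ece1, a metalloprotease that makes endothelins (1.16 ± 0.30), and Nid2, a basement membrane protein (0.96 ± 0.26). Slc25a47, Tmf1 and Pds5a had 0.83, 0.60 and 0.86, each with the larger difference in Teff. Tmf1 had 0.32 without Teff pairs 1 and 2. Their adjusted p ran from 0.739 to 1.00 in limma.

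Passing within a cell type did not mean passing for the interaction. Of the 13 called in pTreg or in Teff without pairs, 10 had an interaction at an unadjusted limma p under 0.05, beside 3.48% of all genes. The interaction contains the differences that chose these genes, which itself raises this count. Of the 12 called in pTreg, 2 were called for the interaction in the same fit. The 3 of the 13 without such a p were Prdm1, Slc2a6 and Pde4d. For Prdm1 the interaction was −0.07 (95% interval −1.27 to 1.13). For Slc2a6, a sugar transporter of lysosomes, it was 0.46 (−0.62 to 1.55), with CKO higher by 2.80 in pTreg and 2.34 in Teff, which passed in Teff with pairs (limma adjusted p = 0.00821) and not without them (0.144). Its interaction was 0.15 without Teff pairs 1 and 2. For Pde4d, a phosphodiesterase of cyclic AMP, it was −0.33 (−0.70 to 0.04), with −0.88 in pTreg and −0.55 in Teff. These intervals leave room for interactions as large as those of named genes, so a shared response is not shown by them.

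Bcl6 was higher in CKO pTreg by 1.82 (limma adjusted p = 0.0222) and by 0.73 in Teff (adjusted p = 1.00), with an interaction of 1.08 ± 0.35 (adjusted p = 1.00). It averaged 8.76 ± 0.38 in CKO pTreg and 6.94 ± 0.26 in Ctrl pTreg, against 9.68 ± 0.29 in CKO Teff and 8.94 ± 0.37 in Ctrl Teff. The CKO pTreg level lay near that of Ctrl Teff. Pgam1, a glycolytic enzyme, was higher in CKO pTreg by 0.87 (adjusted p = 0.0130) and by 0.33 in Teff, an interaction of 0.54 ± 0.15.

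Among lists of T cell programmes, the Treg signature had the lower genotype difference in pTreg for 15 of 17 genes tested, with 1 called without pairs (Gpr83) and 1 with pairs (Il10). Its median interaction was −0.60, beside 0.02 over all genes tested, of which 53.6% were above 0. Besides Gpr83, Izumo1r and Il10, Socs2, an inhibitor of cytokine signalling, had −1.58 ± 0.47, at 8.50 ± 0.49 in CKO pTreg and 10.37 ± 0.23 in Ctrl pTreg against 8.05 ± 0.44 in CKO Teff and 8.33 ± 0.57 in Ctrl Teff. It was −0.65 without Teff pairs 1 and 2. Itgae (CD103), the integrin that binds epithelium, had −0.89 ± 0.75 (limma adjusted p = 1.00). Foxp3 had −0.03 (95% interval −1.29 to 1.23). The list's median lay between −0.87 and −0.37 over the alternatives.

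The Th17 list had a positive interaction in 10 of 14 genes and a median of 0.45, with 3 at an unadjusted p under 0.05 and 0 called by limma with or without pairs. The follicular helper list had 6 of 9 positive and a median of 0.41. Glycolysis had 11 of 15 positive (median 0.21), and cell cycle genes, such as Mcm3 of the replication helicase (0.61 ± 0.38), had 18 of 20 positive (median 0.27). The cell cycle list held 0 genes at an unadjusted p under 0.05 in the unpaired fit. Its median lay between −0.07 and 0.58 over the alternatives.

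Among genes of naive and central memory cells 9 of 11 were negative (median −0.39). Foxp1, which keeps T cells quiescent, had pair differences of −1.61, −1.40 and −1.37 in pTreg and 0.01, −0.37 and −0.15 in Teff, with an interaction of −1.29 (limma adjusted p = 0.0569 with pairs, and 1.00 without). Satb1, a chromatin organiser, had −0.87 ± 0.55. The Th1 list was balanced, with 6 of 14 positive and a median of −0.08, and the T cell cytokines had 10 of 21 positive and a median of −0.01.

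Chemokines (9 of 12 negative, median −0.95) and interferon response genes (15 of 17 negative, median −0.87) had the lowest programme medians. Their Teff values varied widely from pair to pair. Ccl9, a chemokine of myeloid cells, had pair differences of −1.54, 0.78 and −0.49 in pTreg and 5.22, 4.08 and 1.03 in Teff, and an interaction of −3.86 ± 1.47 (limma adjusted p = 1.00). Without Teff pairs 1 and 2 it was −1.45. Gbp3, an interferon-induced GTPase, had −1.60, −1.04 and −0.68 in pTreg and 0.73, 0.21 and −0.02 in Teff (interaction −1.41 ± 0.49). Without Teff pairs 1 and 2 the interferon median was −0.85 and the chemokine median −0.64.

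**Figure D4:**
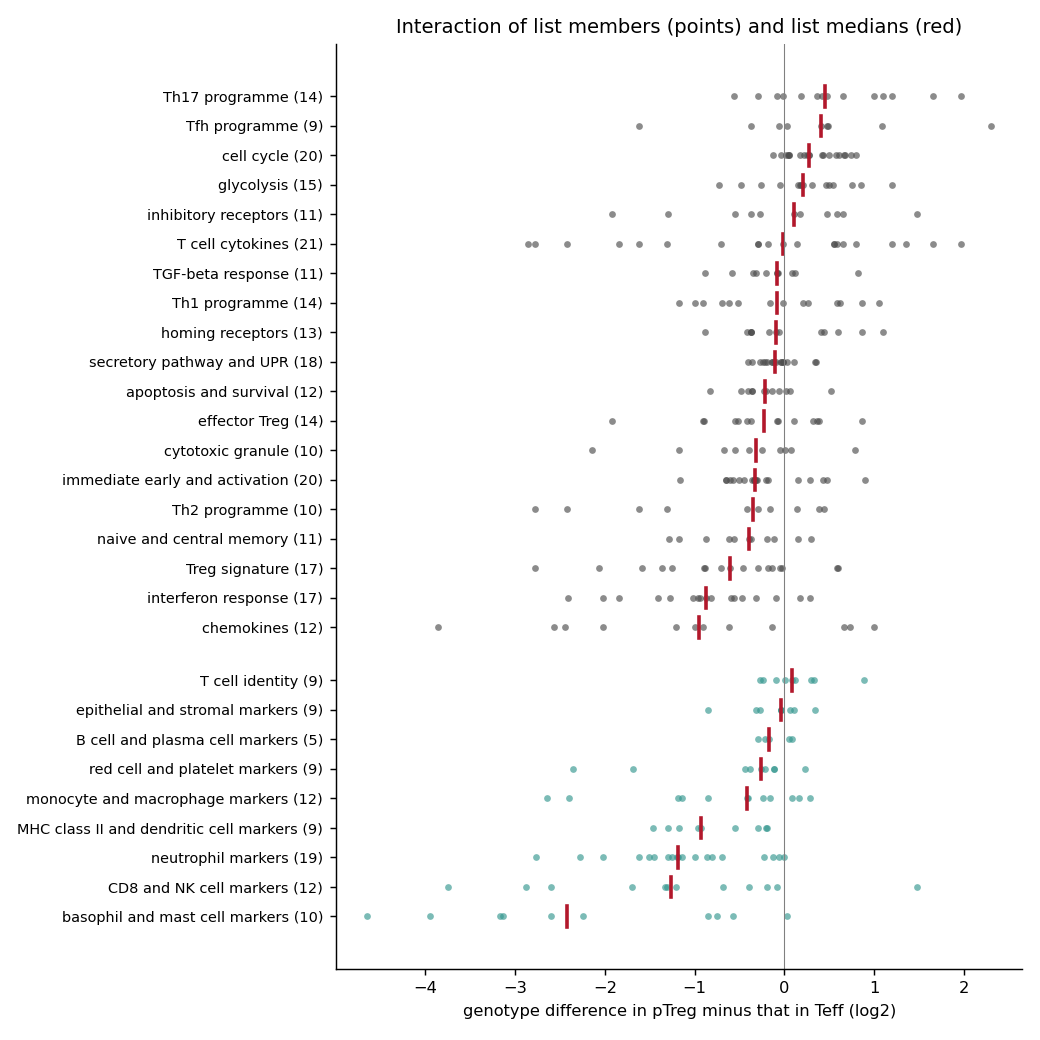
Interaction (genotype difference in pTreg minus that in Teff, log2) of the tested members of each list as points, with the list's median as a red bar and the number tested in brackets. T cell programmes are grey and markers green. Markers of basophils and mast cells, CD8 and NK cells, neutrophils and MHC class II cells have the lowest medians among the markers.

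Most tested markers of other cells lay on the negative side of the interaction, to an unlike extent by list. All 9 MHC class II and dendritic cell markers tested were negative (median −0.93), as were 18 of 19 neutrophil markers (−1.19), 11 of 12 CD8 and NK cell markers (−1.26) and 9 of 10 basophil and mast cell markers (−2.42). Medians nearer 0 were those of monocyte and macrophage (−0.41, 9 of 12 negative) and red cell and platelet markers (−0.27, 8 of 9). B cell and plasma cell markers had −0.17 (3 of 5), and epithelial and stromal markers −0.04 (6 of 9). T cell identity genes had a median of 0.09. Of 85 tested members of the marker lists of other cells, 5 had an unadjusted p under 0.05, which is 5.88% beside 3.48% over all genes. Cd160 among these 5 was positive. None of the 6 called genes was on such a list. Those lists hold only 85 of the 12119 genes tested, so this count says little about the called genes. The part of these cells in the values above was not tested.

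The basophil and mast cell signal came from 2 arrays. The mean of 10 markers was 9.12, 8.67 and 5.54 in CKO Teff, against 5.69, 6.35 and 5.10 in Ctrl Teff, and ran from 5.12 to 5.71 in CKO pTreg and from 5.16 to 5.80 in Ctrl pTreg. Mcpt8, a basophil protease, had 10.85, 10.18 and 5.12 in CKO Teff, against 5.02, 5.59 and 4.54 in Ctrl Teff, and at most 5.67 on a pTreg array. Its interaction of −3.95 ± 1.64 was −0.86 without Teff pairs 1 and 2 and −5.75 without CKO Teff array 3. Of the 22 genes called without that array, all lower, 3 were basophil and mast cell markers and 2, Car2 and Itga2b, red cell and platelet markers. Ky, Gpr83, Cx3cl1 and Tnfsf4 were among the other 17. So were Hs3st1 and Aqp9, with the smallest limma adjusted p (0.00011 and 0.00015), and Cd244a. Cd244a had 6.51, 7.19 and 4.52 in CKO Teff, and Hs3st1 and Aqp9 were also high on those first 2 arrays. Genes outside the marker lists could thus follow the same 2 arrays.

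The mean of 12 CD8 and NK cell markers was 7.23, 8.69 and 6.37 in CKO Teff, against 6.25, 6.36 and 6.15 in Ctrl Teff, and ran from 5.63 to 5.83 in CKO pTreg and from 5.56 to 5.98 in Ctrl pTreg. Klra7, an NK cell receptor, had 8.21, 10.84 and 5.78 in CKO Teff, against 4.90, 5.52 and 4.51 in Ctrl Teff. Cd160, an inhibitory receptor on the same list that activated T cells also carry, went the other way (1.48 ± 0.56), at 11.59 ± 0.73 in CKO pTreg and 10.20 ± 0.76 in Ctrl pTreg against 13.06 ± 0.14 in CKO Teff and 13.16 ± 0.19 in Ctrl Teff. The list's median was −0.17 without Teff pairs 1 and 2, and that of the basophil and mast cell list was −0.12.

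Neutrophil markers differed less by genotype than by pair. Their mean was 7.72, 5.71 and 7.92 in CKO pTreg, 8.74, 5.92 and 8.56 in Ctrl pTreg, 8.88, 9.30 and 6.93 in CKO Teff, and 7.76, 9.84 and 5.98 in Ctrl Teff. CKO lay below Ctrl in all 3 pTreg pairs and above it in 2 of 3 Teff pairs. Their median interaction was −1.72 without Teff pairs 1 and 2, and that of the MHC class II markers was −0.16. Genes of T cell identity were lower in CKO in both cell types, with means of 10.51 to 10.63 in CKO pTreg and 10.70 to 11.01 in Ctrl pTreg, against 10.37 to 10.54 in CKO Teff and 10.81 to 10.88 in Ctrl Teff.

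**Figure D5:**
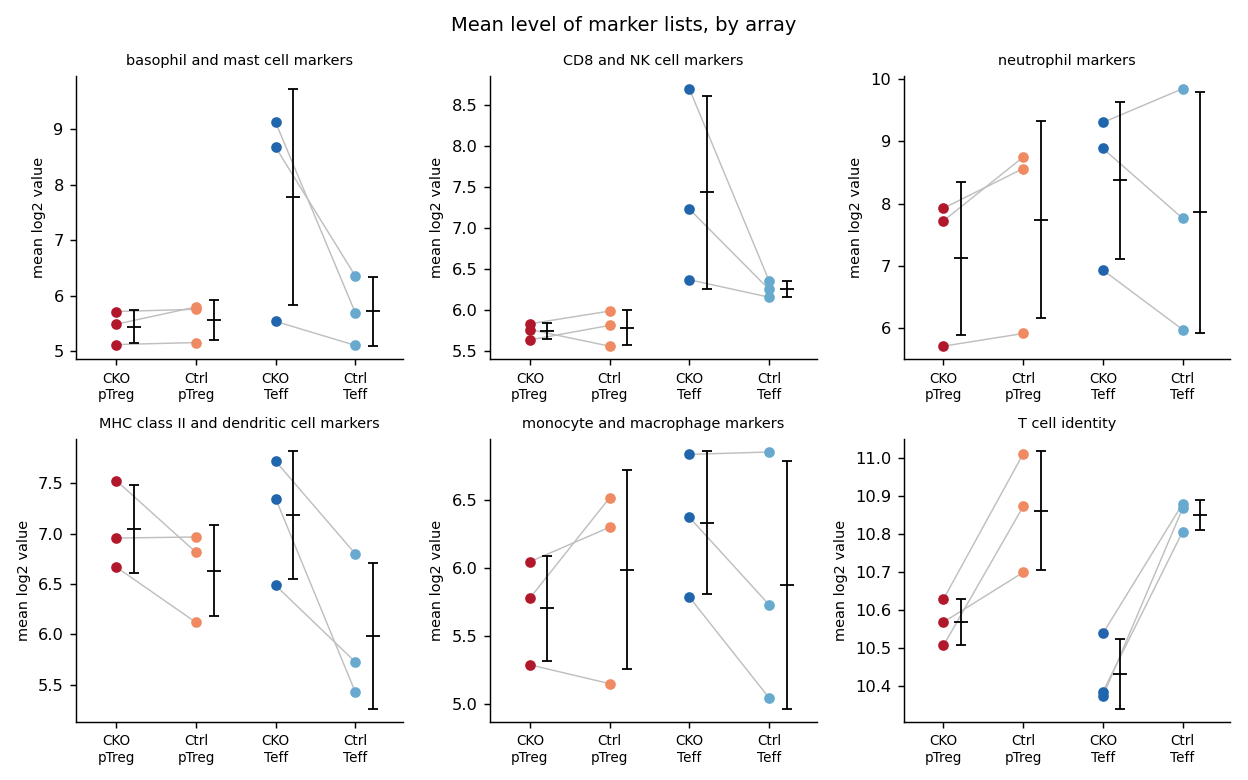
Mean log2 value of 6 marker lists by array in CKO pTreg, Ctrl pTreg, CKO Teff and Ctrl Teff, with the mean ± SD of 3 arrays and grey lines between same-numbered arrays. The basophil and mast cell list stands at 9.12 and 8.67 in CKO Teff arrays 1 and 2 and at most at 6.35 on every other array.

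The 6 called genes kept the sign of their interaction without the Teff pairs that carry these markers. They were chosen with those pairs included, and all pTreg arrays stayed in, so the kept sign is a description only. The basophil and mast cell markers Mcpt8 and Cpa3 kept their sign as well (−0.86 and −0.05). With Teff pairs 1 and 2 left out, the interaction was −1.66 for Ky, −2.29 for Gpr83, −2.68 for Ncmap, −2.46 for Il10, −1.67 for Ecm1 and 1.35 for Pdlim1, and limma called 0 genes in this smaller design. The arrays also fell into 2 sets by their lower quartiles, each with both genotypes of both cell types. The interaction within each set was −1.42 and −1.68 for Ky, −2.20 and −2.17 for Gpr83, −3.16 and −2.52 for Ncmap, −3.06 and −2.40 for Il10, −2.34 and −1.59 for Ecm1, and 1.87 and 1.35 for Pdlim1. Splitting the arrays divides the same values that chose the genes, so it is not a replication. The sources used here do not name these sets.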

How the data were processed

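Total RNA of sorted cells was hybridised to Illumina mouse arrays as biotin-labelled cRNA, 1 array per sample, per the labels. Each deposited value is the log2 intensity of 1 probe, a scale read from the range of the values. GenomeStudio and limma 3.30.11 are named per the submitters' processing notes. The sources used here give no background correction, normalization or filter by the authors, and the nearly equal array quantiles led to the log2 values being used as the authors deposited them. The number of arrays limits the precision.

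Of 31641 probes, 28197 had 1 symbol, 5 several and 3439 none. Probes above the array median on 3 or more arrays were kept, and the probe with the highest mean stood for its gene. The interaction was fitted in R 4.3.3 with limma 3.58.1 (lmFit, eBayes, two-sided, Benjamini-Hochberg over 12119 genes, threshold 0.05), with 1 mean per group over all 12 arrays. The procedure was tested on simulated data. Errors of differences are SE, those of group means SD.

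To see if equal replicate numbers mark pairs, residuals of same-numbered CKO and Ctrl arrays were correlated over genes. These were 0.545, 0.519 and 0.589 in pTreg and 0.348, 0.733 and 0.737 in Teff, each array correlating best with its own number, so results with the replicate block (the pair within a cell type as a fixed term) are given beside the unpaired ones where the call of the interaction differs, and for part of the differences within a cell type. Between cell types, same-numbered pair differences had correlations of −0.159, −0.0831 and −0.0404.

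Named were Prdm1, Foxp3 and Il10, all genes called with or without pairs, the 10 with the smallest p in each direction, genes called within a cell type, and up to 4 members per list by smallest p, without clone names. The members and the 28 lists (363 of 484 members tested) were chosen with earlier results of these data known. Alternatives were quantile normalization, centring on the array median, a filter at the 75th percentile or none, mean of probes or every probe, trend and robust settings, array weights, replicate blocks, leaving out each array or pair, and, chosen after seeing the data, the array set as a term and leaving out Teff pairs 1 and 2. Promoter sequences are those of RefSeq for GRCm38.p6.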

Additional observations from a re-analysis of the deposited data

Results flagged for a closer look

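By the test of the difference itself, 6 genes were called for the interaction in the fit with or without pairs, and only Ky in both. These are the results to look at again, since 9 of the 12 unpaired fits that leave out 1 array called 0 genes. The interaction was −1.53 for Ky and −2.07 for Gpr83 in the limma fit with 1 mean per group (adjusted p = 0.0308 for both). It was −2.79 for Ncmap, −2.78 for Il10, −2.00 for Ecm1 and 1.69 for Pdlim1, called with the replicate pairs and not in that fit (limma adjusted p = 0.00776, 0.0124, 0.0259 and 0.0384). In each of the 6 genes the 3 pair differences of pTreg lay apart from the 3 of Teff, which choosing them by these same values itself favours. Over all genes tested the pTreg differences lay all above those of Teff in 8.61% and all below in 7.09%.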

How the results depend on the processing

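The count of called genes, 2 in the unpaired fit, was 0 with the 75th percentile filter and without Teff pairs 1 and 2, 4 with trend and robust settings, 5 with the replicate block within a cell type, 1 with the block over both cell types and 6 with a random block. Leaving out 1 array or pair gave 0 to 22. The count at an unadjusted p under 0.05, 422, was 659 without a filter, 170 with the 75th percentile, 863 with array weights, 1382, 753 and 1189 with the 3 blocks in the same order, 663 with the array set as a term, and 263 to 819 when 1 array or pair was left out. The paired count of 5 ran from 0 to 119 when a pair was left out. The cause of these changes was not tested, except that fewer arrays leave fewer degrees of freedom and the stricter filter tests fewer genes. Of 62 genes followed over the alternatives, 60 kept the sign of the interaction under all alternatives that gave a value. Among these, 10, with Ky, had none with the 75th percentile filter. Most were chosen by their values on these same arrays, so a kept sign is a description only. Cd244a, Car2, Itga2b, Hs3st1 and Aqp9 were not followed in this way. Cd244a, at −1.29 over all arrays, was 0.28 within 1 of the 2 array sets. The 2 others of the 62 had interactions near 0. Foxp3 turned to 0.14 with array weights and ran from −0.40 to 0.43 when an array or pair was left out, and Prdm1 turned to 0.059 without Teff pairs 1 and 2 and ran from −0.42 to 0.37. The genes called within pTreg were 12 without and 264 with the fixed block within a cell type, and within Teff 2 and 12. For the interaction that block added Ncmap, Il10, Ecm1 and Pdlim1, dropped Gpr83 and changed no other call, while the random block called Ky, Gpr83, Ncmap, Hif1a, Izumo1r and Cx3cl1. The number of arrays, and signals near the array median in Teff, limit what could be seen.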

Other observations

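A dimmer Foxp3 probe, kept by the filter but not used for the gene, departed from the brightest one. It had log2 values of 5.57, 5.14 and 5.76 in CKO pTreg, against 6.40, 5.71 and 6.02 in Ctrl pTreg, and 6.76, 7.35 and 5.13 in CKO Teff, against 4.97, 5.75 and 4.81 in Ctrl Teff, an interaction of −1.79 ± 0.68 (limma adjusted p = 1.00). Its 2 highest arrays were CKO Teff 1 and 2, the arrays with the high basophil and mast cell markers, and whether the 2 are linked was not tested. Of 1813 kept probes with no gene symbol, limma called 0 for the interaction and 56 had an unadjusted p under 0.05.

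Hs3st1, a heparan sulfate sulfotransferase, and Aqp9, a channel for water and glycerol, were chosen after their values were seen. Both were high on the same 2 arrays only. Hs3st1 had 8.16, 8.05 and 4.70 in CKO Teff, against 5.10, 4.68 and 4.71 in Ctrl Teff. Aqp9 had 8.37, 8.16 and 4.66 in CKO Teff, against 4.65, 5.11 and 4.67 in Ctrl Teff. Neither exceeded 5.04 on a pTreg array.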
